A study of Rattus norvegicus with 24 samples.

Results

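MiRNAs that mark blood vessels and red blood cells were followed in rats with an old traumatic brain injury (TBI), in the cortex around the lesion and in the thalamus of the same side. The members were chosen by name, as every row for miR-126, miR-143, miR-145, miR-144, miR-451 or miR-486 in the miRNA count tables, which gave 11 of 728 rows. Endothelium had 3 of them, smooth muscle and pericytes 4, and red cells 4. No row matched miR-486, which was not analysed here.

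Adult Sprague-Dawley rats received either a lateral fluid-percussion injury, a blow to the uncovered dura by a column of fluid, or a sham operation without the blow, and were studied 3 months later. Small RNA was sequenced from both regions of 6 TBI rats and 6 sham-operated controls, 1 library for each region of each rat, 24 libraries in all. The TBI rats had been picked by MRI for lasting signs of inflammation around the lesion, so that they stand for such rats and not for injury at large. The rats were decapitated and the removed brains were rinsed with cold saline to clear blood, and no perfusion of the vessels is described. Rats are named here by the numbers in the sample titles.

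MiR-126 is the best known endothelial miRNA, made from an intron of the endothelial gene Egfl7, and it promotes the response of vessels to growth factors. MiR-143 and miR-145 are transcribed together and hold vascular smooth muscle cells in their contractile state, and in brain they serve as markers of the mural cells that wrap vessels, smooth muscle cells and pericytes. MiR-144 and miR-451 are also transcribed together, under erythroid transcription factors, and miR-451 is among the most abundant miRNAs of red cells. MiR-451 is unusual in that its hairpin is too short for Dicer and is cut by Argonaute 2, so that 1 arm alone is expected to give a mature miRNA.

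The mature sequences below are those of the members the results turn on, from RefSeq on the rat assembly GRCr8. Capitals mark the seed, bases 2 to 8, with which a miRNA pairs to its targets.
rno-miR-126a-3p: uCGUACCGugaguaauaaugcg
rno-miR-143-3p: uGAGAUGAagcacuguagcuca
rno-miR-143-5p: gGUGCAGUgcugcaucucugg
rno-miR-145-5p: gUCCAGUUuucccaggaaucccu
rno-miR-145-3p: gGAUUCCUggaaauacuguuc
rno-miR-144-3p: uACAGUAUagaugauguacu
rno-miR-451-5p: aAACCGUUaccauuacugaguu

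No other mature rat miRNA in the RefSeq table had the seed of any of the 11 members, and no seed was shared between members. MiR-126a-3p lies at chr3:29813219-29813240 on the plus strand, inside Egfl7. MiR-143-3p at chr18:57371373-57371394 and miR-145-5p at chr18:57370033-57370055 lie on the minus strand, inside the long non-coding RNA gene Carmn, with 1278 bases between their hairpins. MiR-144-3p at chr10:63459446-63459465 and miR-451-5p at chr10:63459585-63459606 lie on the plus strand with 89 bases between their hairpins, and no other annotated gene overlaps them.

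The members differed widely in abundance. Levels are given as CPM, counts scaled to 1000000 miRNA reads with TMM scaling (trimmed mean of M-values) within a region. MiR-143-3p made up 1.93 to 4.67% of the miRNA reads of a library and was the miRNA with rank 6 by mean CPM in sham cortex and rank 10 in sham thalamus. MiR-126a-3p had rank 19 in sham cortex and rank 20 in sham thalamus. MiR-145-5p had ranks 102 and 124 there. The red cell miRNAs were far lower, with rank 278 and 312 for miR-451-5p and 332 and 350 for miR-144-3p.

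With libraries pooled, each hairpin gave more reads from 1 arm than from the other. Over all 24 libraries miR-451-5p had 1326 reads and miR-451-3p had 1, in the thalamus of sham rat 34. MiR-143-3p had 478 reads for each read of miR-143-5p, miR-126a-3p had 18.8 for each of miR-126a-5p, miR-145-5p had 3.00 for each of miR-145-3p, and miR-144-3p had 2.26 for each of miR-144-5p. In single libraries miR-144-5p could exceed miR-144-3p. TBI rat 52 had 11 against 6 reads in cortex and 7 against 4 in thalamus, and TBI rat 45 had 24 against 19 in thalamus. MiR-126b, which is read from the opposite strand of the miR-126 locus, had 0 reads in all 24 libraries, and the 3 reads that such a count allows come to 0.631 to 7.70 CPM depending on the depth of the library. MiR-126b and miR-451-3p were too low to be tested. MiR-144-5p was tested only in fits over both regions, which left 8 members tested in each region and 9 over both.

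Depth was the sum of miRNA reads and ran from 744564 to 4069284 in cortex and from 523298 to 4139901 in thalamus, where sham rat 55 and TBI rat 56 had the shallowest libraries. The shallowest library of a group was also the lowest of that group for miR-126a-5p, miR-145-5p and miR-144-5p in 3 of 4 groups each. It was the lowest in 1 of 4 groups for miR-143-5p and miR-144-3p, and in 0 of 4 for miR-143-3p, miR-145-3p, miR-126a-3p and miR-451-5p. In 1 of 4 groups it was the highest for miR-143-3p (sham rat 55 in thalamus) and for miR-144-5p. The part of depth in these values was not tested. As a check of the dissection, the 3 oligodendrocyte miRNAs listed were all higher in thalamus than in cortex, with summed medians of 12779 against 3903 CPM in sham-operated controls when all 24 libraries were scaled together. The 3-read limits hold for counting error alone, because reads copied by PCR are not independent molecules.

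None of the 8 members tested differed between TBI and sham cortex in the edgeR quasi-likelihood test, against 22 of all 371 miRNAs tested (5.93%). None of the 8 differed in the thalamus either, against 2 of 390 (0.513%). No member had an unadjusted p under 0.05 in either region, and DESeq2 called 0 members in both, against 9.43% of all miRNAs in cortex and 0.769% in thalamus. The median log2 fold change of the members was 0.05 in cortex, where that of all miRNAs was 0.05, and 0.29 in thalamus, where that of all miRNAs was -0.03. These are bulk tissue samples, in which fewer cells of a type and less RNA per cell cannot be told apart.

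**Figure D1:**
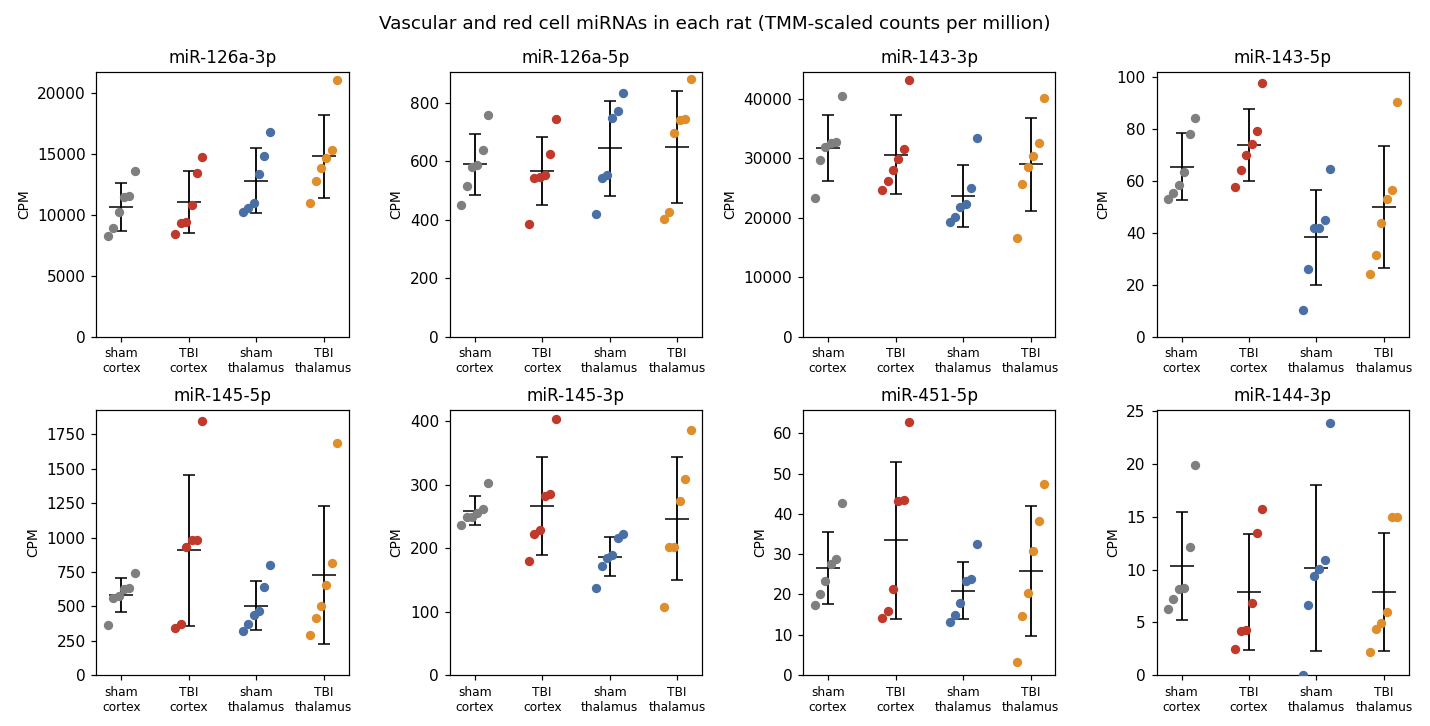
Level of the 8 members tested in both regions, in CPM after TMM scaling within a region, on linear axes that start at 0. Each point is 1 rat (6 per group, drawn in order of level), and the black bar and whiskers are the mean and SD. TBI and sham points overlap in every panel, and for miR-145-5p in cortex the TBI rats run from 344 to 1846 CPM and the controls from 365 to 741 CPM.

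The endothelial miR-126a-3p, the guide arm that acts on inhibitors of growth factor signaling, overlapped between TBI rats and controls. In cortex it ran from 8256 through a median of 10854 to 13565 CPM in sham-operated controls and from 8424 through 10128 to 14784 CPM in TBI rats. The ranges overlapped over almost their whole width, with a log2 fold change of 0.05 (SE 0.16, edgeR adjusted p = 0.908). In thalamus it ran from 10248.5 through 12173 to 16794 CPM in controls and from 11013 through 14243 to 21091.5 CPM in TBI rats. Of the TBI rats 5 lay above the sham median, but only rat 63 lay above all controls (log2 fold change 0.21, SE 0.19, adjusted p = 0.818). At 2 standard errors the thalamic difference lay between 0.893 and 1.496 times the sham level.

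Its partner arm miR-126a-5p overlapped between the groups as well. It ran from 452 through 584 to 758 CPM in sham cortex and from 387 through 550.0 to 745 CPM in TBI cortex (log2 fold change -0.05, SE 0.16, adjusted p = 0.899). In thalamus the medians were 650.3 CPM in controls and 717 CPM in TBI rats, with ranges of 421 to 833 and 402 to 880.5 CPM, and the log2 fold change was 0.01 (SE 0.24, adjusted p = 0.997). The arm ratio, miR-126a-3p over miR-126a-5p, needs no scaling between libraries. Its median, taken on the log2 scale, was 18.1 in sham and 20.7 in TBI cortex, and 18.9 and 23.0 in thalamus. Neither difference passed the threshold (exact permutation of the group labels, two-sided, p = 0.649 and 0.494, adjusted p = 0.866 for both).

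Among the mural cell miRNAs, miR-143-3p was the most abundant member. In cortex it ran from 23239 (rat 55) through a median of 32225 to 40468 CPM (rat 32) in sham-operated controls. In TBI cortex it ran from 24678 (rat 52) through 28988 to 43167 CPM (rat 45). Rat 45 was the only TBI rat above all controls and none was below them, and the log2 fold change was -0.05 (SE 0.15, edgeR adjusted p = 0.899).

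In thalamus miR-143-3p ran from 19249 (rat 32) through 22098 to 33331 CPM (rat 55) in controls and from 16637 (rat 52) through 29478 to 40185 CPM (rat 45) in TBI rats. Of the TBI rats 5 lay above the sham median, but only rat 45 lay above the highest control and rat 52 lay below the lowest. That control, rat 55, had the shallowest library and the smallest TMM factor in thalamus (0.745). As a share of miRNA reads, without TMM, rat 55 had 2.48% and the highest control was rat 38 with 2.65%. TBI rats 22, 24, 45 and 56 lay above it with 2.72, 3.08, 4.39 and 2.75%, and rats 52 and 63 did not, with 1.93 and 2.48%. The log2 fold change was 0.29 (SE 0.20, adjusted p = 0.783), which at 2 standard errors runs from 0.923-fold to 1.62-fold. Its passenger arm miR-143-5p, at 53.0 to 97.5 CPM in cortex and 10.3 to 90.4 CPM in thalamus, gave 0.16 (SE 0.18, adjusted p = 0.611) and 0.34 (SE 0.37, adjusted p = 0.825).

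MiR-145-5p, the guide arm of the miR-145 hairpin, spread more among TBI rats than among controls. In sham cortex it ran from 365 (rat 26) through a median of 600.0 to 741 CPM (rat 34). In TBI cortex the 6 rats had 1846 (rat 45), 979.6 (rat 52), 979 (rat 24), 932 (rat 22), 368 (rat 63) and 344 CPM (rat 56). Of these 4 were above every control, rat 56 was below every control and rat 63 lay near the lowest control.

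The mean of miR-145-5p in cortex was 584 ± 125 CPM (SD, n = 6) in sham-operated controls and 908 ± 548 CPM (SD, n = 6) in TBI rats. The log2 fold change of 0.64 (SE 0.33, edgeR adjusted p = 0.267) had the largest size among the members in cortex and did not pass the threshold. Without rat 45 it was 0.24. At 2 standard errors the fold ran from 0.980 to 2.47.

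In thalamus miR-145-5p ran from 323 (rat 55) through 449 to 800.3 CPM (rat 50) in controls. The TBI rats had 1687 (rat 45), 814 (rat 52), 656 (rat 24), 502 (rat 22), 417 (rat 63) and 288 CPM (rat 56). Only rats 45 and 52 were above every control and rat 56 was below them, and the log2 fold change was 0.53 (SE 0.38, adjusted p = 0.787), or 0.15 without rat 45.

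The other arm of the same hairpin, miR-145-3p, spread less. It ran from 236 through a median of 252 to 303 CPM in sham cortex and from 181 (rat 52) through 255 to 403 CPM (rat 45) in TBI cortex, where 3 TBI rats were below all controls and 1 was above them. In thalamus it ran from 137 through 187 to 222 CPM in controls and from 107 (rat 52) through 238 to 386 CPM (rat 45) in TBI rats, 3 of which were above all controls. The log2 fold changes were 0.04 (SE 0.17, edgeR adjusted p = 0.914) and 0.40 (SE 0.26, adjusted p = 0.783).

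The arms of miR-145 ranked the TBI rats differently. Rat 52 was the lowest TBI rat for miR-145-3p in both regions and the second highest for miR-145-5p in both, nearly level with rat 24 in cortex. Its ratio of miR-145-5p to miR-145-3p was therefore the highest, 5.42 in cortex and 7.57 in thalamus, while rat 56 had the lowest, 1.499 and 1.42. In sham-operated controls the ratio ran from 1.39 to 2.97 in cortex and from 1.87 to 3.70 in thalamus. The ratio of miR-143-3p to miR-145-5p, which are cut from 1 shared transcript, had a median of 54.6 in sham and 32.1 in TBI cortex and of 46.2 and 51.3 in thalamus, again without a difference past the threshold (exact two-sided permutation test, p = 0.208 and 0.874, adjusted p = 0.831 and 0.874).

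**Figure D2:**
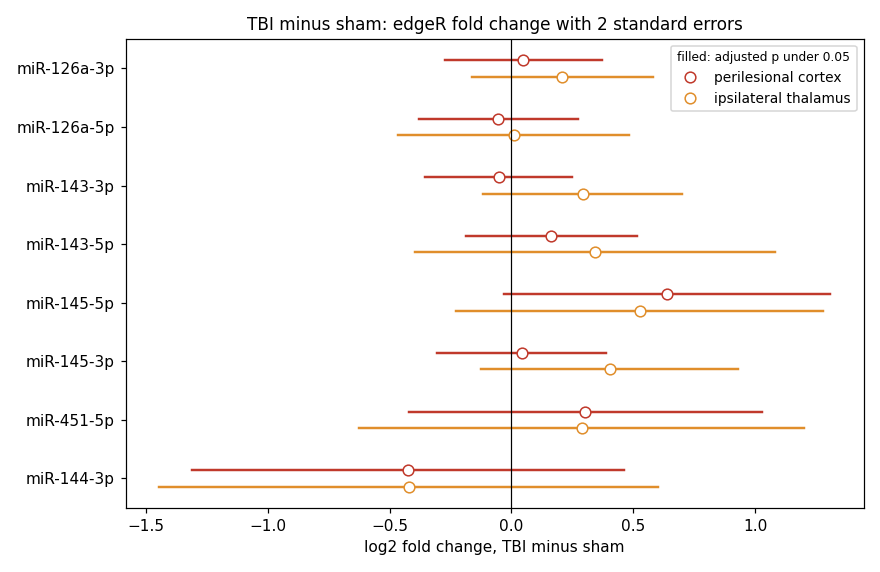
Log2 fold change of TBI over sham from edgeR for the 8 members tested in each region (points), with lines of 2 standard errors on either side. All points are open because none passed an adjusted p of 0.05, and all lines cross 0. The lines are shortest for miR-126a-3p and miR-143-3p and longest for miR-144-3p.

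The red cell miRNA miR-451-5p was low in every library, with 6 to 191 reads. In cortex it ran from 17.5 (rat 34) through a median of 25.5 to 42.7 CPM (rat 32) in sham-operated controls and from 14.1 (rat 52) through 32.2 to 62.8 CPM (rat 22) in TBI rats. Of the TBI rats 3 (22, 45 and 56) were above every control and 2 (24 and 52) were below every control. The mean was 26.7 ± 8.96 CPM against 33.4 ± 19.4 CPM (SD, n = 6 each), and the log2 fold change was 0.30 (SE 0.36, edgeR adjusted p = 0.657).

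In thalamus miR-451-5p ran from 13.3 (rat 34) through 20.7 to 32.6 CPM (rat 50) in controls. In TBI rats it ran from 3.27 (rat 52) through 25.6 to 47.4 CPM (rat 45), with 2 rats above and 1 below all controls. The log2 fold change was 0.29 (SE 0.46, adjusted p = 0.871), and at 2 standard errors the fold ran from 0.648 to 2.30. In cortex that fold ran from 0.748 to 2.04.

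MiR-144-3p, made from the same transcript as miR-451-5p, had 0 to 52 reads in a library. In cortex it ran from 6.29 through a median of 8.20 to 19.9 CPM in sham-operated controls and from 2.48 (rat 52) through 5.56 to 15.8 CPM (rat 22) in TBI rats, 3 of which were below all controls. In thalamus it ran from 0 (rat 55, the shallowest library) through 9.70 to 23.9 CPM in controls and from 2.18 (rat 52) through 5.46 to 15.0 CPM (rat 22) in TBI rats. The log2 fold changes were -0.43 (SE 0.44, edgeR adjusted p = 0.597) and -0.42 (SE 0.51, adjusted p = 0.831). It was the only tested member with a negative value in both regions.

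MiR-144-5p had 40 reads in all sham cortex libraries together, 51 in TBI cortex, 56 in sham thalamus and 58 in TBI thalamus, and was below the filter in each region. The ratio of miR-451-5p to miR-144-3p had a median of 2.89 in sham and 3.80 in TBI cortex and of 2.34 and 2.90 in thalamus. It ran from 0.880 to 5.85 over sham cortex and from 3.00 to 9.46 over TBI cortex, and the difference did not pass the threshold in either region (exact two-sided permutation test, p = 0.134 and 0.818, adjusted p = 0.831 and 0.874). The fourth ratio examined, miR-451-5p to miR-143-3p, which sets a red cell against a vessel wall miRNA, moved by 0.22 in cortex and -0.30 in thalamus on the log2 scale (exact permutation p = 0.535 and 0.561, adjusted p = 0.866 for both).

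Single rats, TBI and sham, were the highest or the lowest of their group for several members. Among the 8 members tested, rat 45 was the highest TBI rat for 4 in cortex, the 4 mural cell arms, and for 6 in thalamus. Rat 52 was the lowest TBI rat for 5 members in cortex and for the same 5 in thalamus, miR-143-3p, miR-143-5p, miR-145-3p, miR-144-3p and miR-451-5p. Among controls, rat 55 was the lowest for 4 members in cortex and for 4 in thalamus, with only miR-126a-5p in both. Sham rat 32 was the highest control for 5 members in cortex and for 1 in thalamus. The endothelial miRNAs of rat 52 summed to 14023 CPM in cortex against a TBI median of 10772 CPM, and to 14279 against 14658 CPM in thalamus, where its miR-126a-5p was the second lowest at 427 CPM.

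Marker miRNAs of other cell types moved with rat 45. In its thalamus the 4 mesenchymal and fibroblast miRNAs summed to 1238 CPM against a TBI median of 179 CPM, with 1 of the 4 at 0 reads in the group, and the 7 choroid plexus miRNAs summed to 14834 CPM against 2022 CPM. Sums in sham thalamus ran from 79.5 to 300.1 CPM and from 1272 to 5592 CPM. In its cortex the sums were 923 against 538 CPM and 2196 against 1023 CPM. Rat 45 was also the lowest TBI rat for the summed neuronal miRNAs, with 236309 CPM in cortex and 136946 CPM in thalamus against medians of 276211 and 211731 CPM. It was the highest for the leukocyte and microglia miRNAs in thalamus, 3034 against 2291 CPM. Their part in the high miR-143 and miR-145 values of rat 45 was not tested.

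Correlations were computed for 8 relations of a member between the 2 regions of a rat and 12 of 2 members within a group, 20 in all, of which 4 had an exact permutation p under 0.05 and 1 passed after adjustment. That relation was miR-145-5p between cortex and thalamus of the 6 TBI rats, which followed the same order in both regions, 45, 52, 24, 22, 63 and 56, with rats 52 and 24 nearly level in cortex (Pearson r = 0.92, adjusted p = 0.0278, raw exact permutation p = 0.00139). The rank correlation, Spearman's rho, was 1.00 (exact p = 0.00278, adjusted p = 0.0556), and r without the 2 rats farthest from the cortical median was 0.95. With library size as the only scaling r was 0.89 and no longer passed (exact permutation, adjusted p = 0.185). In sham-operated controls r was 0.23 (exact p = 0.692, rho = 0.14), and the difference between TBI rats and controls was not tested. The regions of a rat were also compared across 407 miRNAs, members included. Deviations from the group means correlated between the regions with r of 0.31 to 0.64 in TBI rats and -0.19 to 0.49 in controls. These ranges overlapped, and their difference was not tested. The shallowest TBI library of both regions was that of rat 56, the lowest rat.

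MiR-451-5p had r = 0.85 between the regions of TBI rats, with rho = 0.94, but did not pass after adjustment (exact permutation p = 0.0181, adjusted p = 0.157 for r). In controls r was 0.51 (exact p = 0.293). MiR-143-3p had r = 0.81 in TBI rats (exact p = 0.0792) and r = -0.87 in controls (exact p = 0.0361, adjusted p = 0.181). The negative value in controls rested on the 2 rats farthest from the median, since r was 0.18 without them, and it was -0.17 with library size as the only scaling.

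**Figure D3:**
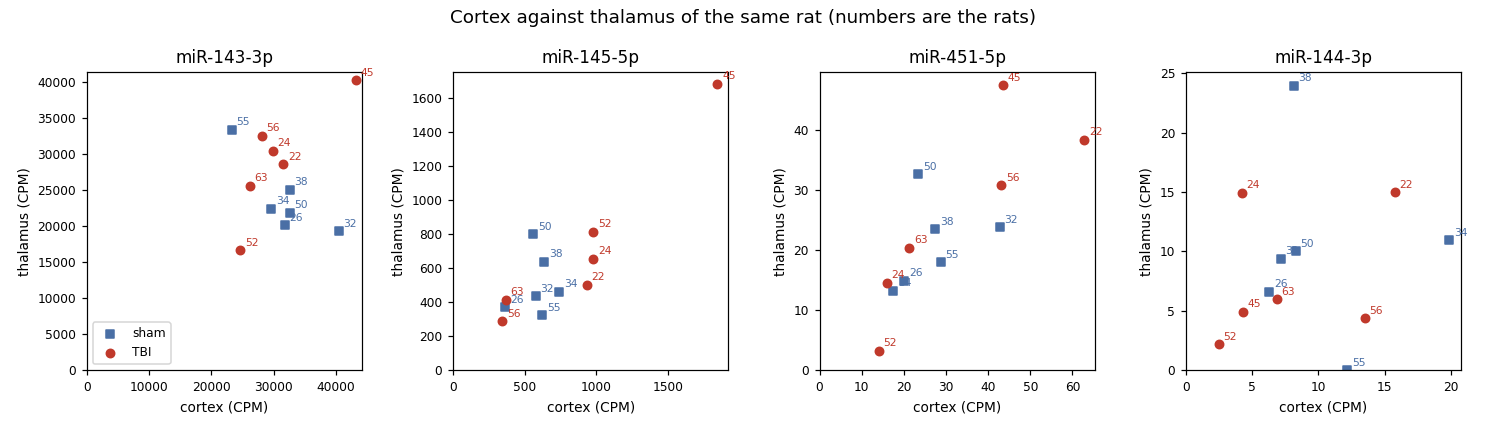
Level in cortex (x axis) against level in thalamus (y axis) of the same rat for 4 members, in CPM after TMM scaling within a region, on linear axes from 0. Red circles are TBI rats and blue squares are sham-operated controls, each with its rat number. For miR-145-5p the TBI rats rise together from rat 56 (344 and 288 CPM) to rat 45 (1846 and 1687 CPM), while the controls form 1 cloud.

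Across rats within a group, miR-144-3p and miR-451-5p, although neighbors on 1 transcript, gave r from -0.45 in sham cortex to 0.79 in TBI cortex, and none of the 4 groups passed (exact permutation p = 0.0806 to 0.692). MiR-145-5p with miR-143-3p gave r from -0.28 in sham thalamus to 0.67 in TBI cortex (exact permutation p = 0.144 to 0.767). MiR-143-3p with miR-451-5p, a vessel wall and a red cell miRNA, had r = 0.90 in TBI thalamus (exact permutation p = 0.0236, adjusted p = 0.157, rho = 0.71), which fell to 0.13 without the 2 farthest rats. In the other groups r was 0.56 in TBI cortex, 0.40 in sham cortex and -0.10 in sham thalamus.

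Between the regions of sham-operated controls, 3 of the 4 mural cell arms were lower in thalamus than in cortex. Counts of both tables were joined for this comparison and scaled over all 24 libraries, so that the CPM differ from those above. In sham-operated controls 3 of 9 members were lower in thalamus (edgeR, adjusted p under 0.05), against 12.3% of all 407 miRNAs called in that direction, and none was higher. These were miR-143-3p, miR-143-5p and miR-145-3p. In TBI rats 1 of 9 was lower, miR-143-5p, against 13.3% of all.

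In sham-operated controls miR-145-3p ran from 263 through a median of 288 to 332 CPM in cortex and from 125 through 177 to 192 CPM in thalamus, without overlap (log2 fold change -0.79, SE 0.23, adjusted p = 0.0114). MiR-143-3p ran from 25871 through 35886 to 44425 CPM in cortex and from 17634 through 20414 to 29072 CPM in thalamus (log2 fold change -0.75, SE 0.18, adjusted p = 0.00306). It was lower in the thalamus of 5 of 6 sham rats and overlapped through rat 55. MiR-143-5p, at 61.6 to 92.5 CPM in cortex and 8.95 to 63.2 CPM in thalamus, was lower in 6 of 6 (log2 fold change -1.02, SE 0.30, adjusted p = 0.0134). Its reads in thalamus went down to 4 in sham rat 55 and to 20 in TBI rat 56, the shallowest libraries there.

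In TBI rats the same miRNAs were again lower in the thalamus of 6 of 6 rats each. MiR-143-5p had medians of 78.8 CPM in cortex and 42.5 CPM in thalamus and passed (log2 fold change -0.82, SE 0.30, adjusted p = 0.0433). MiR-143-3p, with medians of 31283 and 25837 CPM, did not pass (log2 fold change -0.36, SE 0.18, adjusted p = 0.164), nor did miR-145-3p, with medians of 276 and 210.5 CPM (-0.39, SE 0.23, adjusted p = 0.225).

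The regions came from the same rats, and with the rat as a block 5 of 9 members were lower in sham thalamus, against 16.5% of all miRNAs, and 4 of 9 in TBI thalamus, against 17.4%. The block added miR-145-5p (sham -0.56, adjusted p = 0.0317, TBI -0.60, adjusted p = 0.0211) and miR-451-5p (sham -0.66, adjusted p = 0.0441, TBI -0.73, adjusted p = 0.0229) in both groups of rats. It also added miR-145-3p in TBI rats (-0.44, adjusted p = 0.0267). MiR-143-3p stayed above the threshold in TBI rats (-0.37, adjusted p = 0.0808). The endothelial arms, at -0.21 to 0.15 in the blocked fit, were not called in either group (adjusted p = 0.317 to 0.781).

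**Figure D4:**
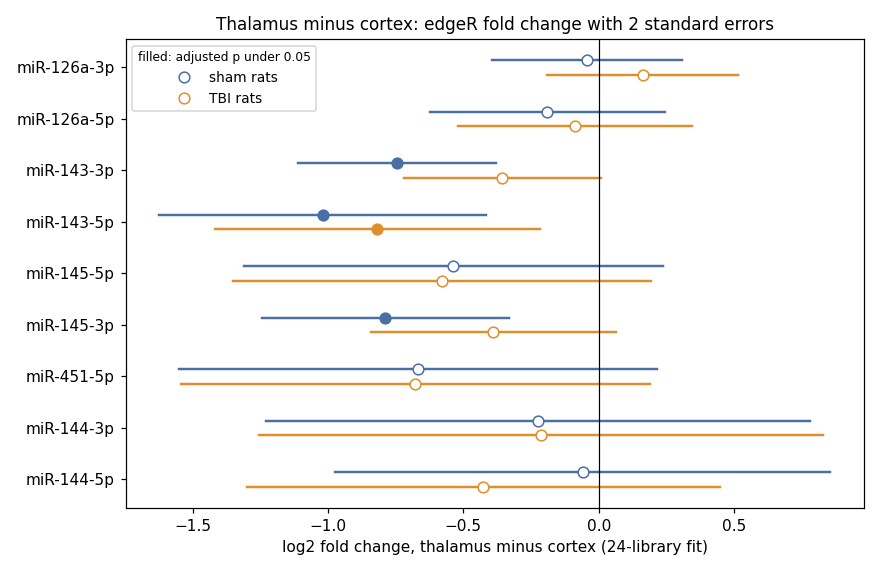
Log2 fold change of thalamus over cortex from the edgeR fit of all 24 libraries without the rat block, for the 9 members tested over both regions (points), with lines of 2 standard errors on either side. Filled points passed an adjusted p of 0.05: miR-143-3p (-0.75), miR-143-5p (-1.02) and miR-145-3p (-0.79) in sham-operated controls and miR-143-5p (-0.82) in TBI rats.

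These calls depended on the scaling between the regions. With library size as the only scaling no member was called in either group of rats, while the median of all miRNAs moved to 0.46 in controls and 0.15 in TBI rats. MiR-143-3p was then at -0.33, miR-143-5p at -0.55 and miR-145-3p at -0.34 in controls, still lower than that median. Without sham rat 32 only miR-143-3p remained called in controls, and in TBI rats the call of miR-143-5p was lost without any 1 of rats 22, 24, 26, 38, 50, 52, 56 and 63 (adjusted p = 0.0552 to 0.184). Its log2 fold change without 1 rat stayed between -0.91 and -0.62.

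A ratio within a library needs no such scaling. Reads of miR-143-3p per 1000 reads of the endothelial miR-126a-3p were compared after the values had been seen, as a description without a test. In sham-operated controls they ran from 2762 through a median of 2911 to 3328 in cortex and from 1146 through 1977 to 2491 in thalamus, without overlap. In TBI rats they ran from 1771 through 3185 to 3979 in cortex and from 1201 through 2224 to 2763 in thalamus. The ratio was lower in thalamus in 6 of 6 sham and 6 of 6 TBI rats. The same held for miR-143-5p and for miR-145-3p, whose median of 23.6 per 1000 in sham cortex stood against 15.6 in sham thalamus. MiR-451-5p per 1000 was lower in thalamus in 5 of 6 sham and 6 of 6 TBI rats, and miR-126a-5p in 3 of 6 and 4 of 6. MiR-145-5p, the other mural arm, was lower in 3 of 6 sham and 6 of 6 TBI rats, and miR-144-3p in 2 of 6 and 5 of 6.

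Of the 3 mesenchymal and fibroblast miRNAs tested 2 were also lower in the thalamus of sham-operated controls, miR-199a-5p and miR-214-3p, and 0 in TBI rats, against 12.3% and 13.3% of all miRNAs. The median log2 fold change of the list was -1.98 in controls and -1.29 in TBI rats, and the summed level in controls ran from 306 to 465 CPM in cortex and from 69.4 to 295 CPM in thalamus. Of the 4 striated muscle miRNAs tested 2, miR-1-3p and miR-133a-3p, were lower in thalamus in both groups of rats. Of the 4 neuronal miRNAs 2 were lower in sham and 3 in TBI thalamus, and their summed median was 453810 CPM in the cortex and 201987 CPM in the thalamus of controls. The part of these cells in the regional difference of miR-143 and miR-145 was not tested.

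No difference in the effect of injury between the regions passed the test. The difference of the log2 fold changes, thalamus minus cortex, ran from -0.37 for miR-144-5p to 0.40 for miR-145-3p, and 0 of 9 members passed in edgeR (adjusted p = 1.00 for all), none had an unadjusted p under 0.05 and DESeq2 called 0. Among all 407 miRNAs 0% passed and 17 had an unadjusted p under 0.05.

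Other cell type lists gave the setting of these values in TBI against sham tissue, where 5.93% of all miRNAs were called in cortex and 0.513% in thalamus. Of the leukocyte and microglia miRNAs 2 of 6 tested were higher in TBI thalamus (miR-155-5p and miR-146a-5p), and 0 of 7 in cortex, where the list's summed median was 1766 CPM in TBI rats and 1249 CPM in controls. Of the mesenchymal miRNAs 1 of 3 was higher in TBI cortex, miR-199a-3p, and of the choroid plexus miRNAs 1 of 3, miR-211-5p. In TBI cortex 1 of 4 neuronal miRNAs (miR-128-3p) and 1 of 4 striated muscle miRNAs (miR-1-3p) were lower, and 0 of 3 oligodendrocyte miRNAs differed in either region. The summed level of the endothelial list had medians of 11416 CPM in sham and 10772 CPM in TBI cortex, and of 12758 and 14658 CPM in thalamus. That of the mural cell list was 33004 and 29982 CPM in cortex and 22984 and 30403 CPM in thalamus, and that of the red cell list 40.2 and 41.3 CPM in cortex and 32.8 and 34.3 CPM in thalamus.

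The miRNAs whose levels followed the members most closely were sought among 353 others, over 24 libraries after removal of the 4 group means, as a description. Libraries share depth and scaling, and rats gave 2 libraries each. MiR-126a-3p varied most like miR-24-3p (r = 0.89), miR-872-5p (0.81) and miR-28-5p (0.76), and hardly at all with its own other arm (0.07). MiR-143-3p varied most like miR-455-5p (0.75), miR-10b-5p (0.70) and miR-22-3p (0.70). Among the members it was nearest to miR-145-3p (0.78), followed by miR-451-5p (0.63), and far from miR-145-5p (0.26) and from miR-143-5p (0.29).

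MiR-451-5p varied most like miR-22-3p (r = 0.64), miR-34b-5p (0.57) and miR-26a-5p (0.56). Its correlation with the mural miR-145-3p (0.68) was higher than that with miR-144-3p from its own transcript (0.37). With miR-126a-3p it was 0.00. Among the guide arms, miR-126a-3p had r = 0.06 with miR-143-3p, while miR-143-3p had r = 0.63 with miR-451-5p. By group, the r of miR-143-3p with miR-451-5p ran from -0.10 in sham thalamus to 0.90 in TBI thalamus.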

How the data were processed

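Per the study's methods, 300 ng of total RNA per sample was made into small RNA libraries with a NEBNext kit, size-selected and sequenced on an Illumina NextSeq instrument. The authors trimmed adapters, checked reads with FastQC, mapped them to the rat assembly RGSC3.4 and annotated them with miRBase. The authors deposited whole read counts per miRNA and library, which are not normalized, and CPM tables that were not used here. The aligner is not given in the sources used here.

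Groups came from the sample titles. The counts were tested per region by quasi-likelihood in edgeR 4.0.16 (R 4.3.3) after filterByExpr and TMM, with Benjamini-Hochberg adjustment over all miRNAs tested and a threshold of 0.05. The regions were compared with 1 fit of all 24 libraries. Standard errors come from the F statistic, whose square root divides the size of each log2 fold change. Ratios used counts plus 0.5, and medians of the tested ratios were taken on the log2 scale. Correlations used log2 CPM with a prior count of 2. Ratios and correlations were tested by exact permutation and adjusted over 8 ratios or 20 relations. Scripts were tested on simulated data.

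The rat numbers pair the libraries of both regions, since they name 1 animal. Deviations from the group mean correlated between the regions of a rat with r from -0.19 to 0.64 (median 0.39), above 0.1 in 8 of 12 rats. Members, marker lists and tests were chosen with earlier results of these data known. The genes named were all members, the listed miRNAs that were called and the 3 miRNAs most like miR-451-5p, miR-143-3p and miR-126a-3p. Alternatives were other scalings, filters, DESeq2 (version 1.42.0), the rat as block and leaving out each rat.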

Additional observations from a re-analysis of the deposited data

Results flagged for a closer look

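One value stood apart from the rest of its group. MiR-143-3p in the cortex of TBI rat 45 was 43167 CPM and the next TBI rat had 31543 CPM, a gap of 0.629 of the range of the 6 rats, just over the limit of Dixon's test for 6 samples (0.625). Of 52 groups of 6 values examined 1 was flagged, and chance flags about 1 in 20 groups, or 2.6 here. The same rat's high miR-145-5p values, 1846 CPM in cortex and 1687 CPM in thalamus, did not pass that limit. The thalamic value fell only just short of it, since the next TBI rat had 814 CPM and the lowest 288 CPM.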

How the results depend on the processing

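The count of members called between TBI and sham tissue was 0 in both regions, and 0 for the difference between regions, under every alternative tried and without any 1 rat. Depth limits the red cell miRNAs most, with at most 191 reads per library. Scaling by library size alone moved the median of all miRNAs to 0.25 in cortex and to -0.27 for the difference between regions.

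The calls between regions did change. In controls 3 members were called, against 0 with library size only, 1 after scaling to 4 reference miRNAs, 5 with the replicate block, and 1 to 3 without 1 rat. In TBI rats 1 was called, against 0 with DESeq2 size factors in edgeR, 0 with library size only, 0 with the reference miRNAs, 4 with the block, and 0 to 1 without 1 rat. The block, which pairs the 2 regions of a rat, changed no other call. The 1 correlation called between regions became 0 with library size only.

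Values that changed sign were all uncalled. With library size only they were, as log2 fold changes, miR-126a-5p 0.16 and miR-143-3p 0.18 in cortex, miR-126a-5p -0.021 in thalamus, miR-126a-3p 0.40, miR-126a-5p 0.27, miR-144-3p 0.23 and miR-144-5p 0.44 between sham regions, and miR-126a-5p 0.091 between TBI regions. As correlations they were miR-145-5p with miR-143-3p 0.11 in sham cortex and 0.21 in sham thalamus, and miR-143-3p with miR-451-5p -0.13 in sham cortex. With the reference miRNAs miR-126a-3p was -0.019 in cortex and miR-126a-5p -0.11 in thalamus. In the fit of 24 libraries miR-126a-3p in cortex was -0.0010, and with the block miR-144-5p between sham regions was 0.010.

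Without 1 rat, log2 fold changes in cortex ran from -0.083 to 0.13 for miR-126a-3p, -0.21 to 0.026 for miR-143-3p, -0.15 to 0.098 for miR-145-3p and -0.069 to 0.51 for miR-451-5p. In thalamus they ran from -0.042 to 0.19 for miR-126a-5p and -0.64 to 0.0051 for miR-144-3p. Between sham regions they ran from -0.15 to 0.052 for miR-126a-3p, -0.65 to 0.11 for miR-144-3p and -0.21 to 0.14 for miR-144-5p, and between TBI regions from -0.11 to 0.11 for miR-126a-5p and -0.50 to 0.079 for miR-144-3p. Log2 ratios ran from -0.16 to 0.68 for miR-451-5p over miR-144-3p and -0.35 to 0.14 for miR-143-3p over miR-145-5p in thalamus, -0.022 to 0.23 for miR-126a-3p over miR-126a-5p in cortex, and -0.49 to 0.045 for miR-451-5p over miR-143-3p in thalamus. The cause of these changes was not tested. MiR-144-3p and miR-144-5p gave no value under the filter of 50 mean counts, nor did miR-144-5p without TBI rat 22.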
